A study of Drosophila melanogaster with 2 samples.

Results

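The genes described here are 10 Drosophila melanogaster genes: Dref, BEAF-32, M1BP, CTCF, Cp190, su(Hw), Chro, Trl, Adf1 and HmgZ. The group is named for insulator proteins and factors that bind at promoters, and it includes HmgZ, which encodes an HMG-box chromatin protein. They are 10 of the 13945 protein-coding genes annotated on the 6 chromosome arms used, and all 10 were found by symbol. They were chosen from earlier peak calls of these same libraries, by name and by the peaks whose summit lies in the gene body or up to 2 kb upstream. Their peaks are therefore given as a description, without a test. ChIP-seq, the sequencing of DNA recovered with an immunoprecipitated protein, was done on whole embryos aged 8 to 24 h of the strain slbo-GFP, a transgenic line in which Slbo is fused to eGFP. The sample descriptions state that an anti-GFP antibody was used, while the antibody label reads slbo. There was 1 group with biological replicates 1 and 2, chromatin was sonicated with a stated size range of 200 to 800 (no unit given), and no control sample was analysed here. The embryo was not divided into cell types, so a strong peak in many cells and a stronger peak in few cells cannot be told apart.

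Slbo, a bZIP transcription factor of the C/EBP family, takes its name from border cell migration in the ovary. Insulator proteins bind DNA between or within genes and limit which enhancers can act on which promoters, and in flies many of their sites lie next to the promoters of broadly expressed genes. DREF binds the DNA replication-related element at promoters of replication and growth genes, BEAF-32 binds clusters of a short related motif at domain boundaries, and M1BP binds the core-promoter element called Motif 1. CTCF and su(Hw) are zinc-finger insulator proteins. Cp190 is a cofactor recruited by several of them, Chro is a chromodomain protein of open interband chromatin, and Trl encodes the GAGA factor. Adf1 is a MADF-domain transcription factor, and HmgZ is an HMG-box chromatin protein.

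The sequences below are the DNA under or beside the peaks of 7 of the genes and show which short motifs lie there. They are dm6, plus strand, read from the RefSeq copy of that build. Capitals mark matches on either strand to the motifs searched, where N is any base. TTACNNAA and TTGCNNAA are loose motifs for the C/EBP site, since they leave 2 bases open. TATCGATA is the core of the element bound by DREF. CGATA, which TATCGATA contains, is the short BEAF-32 motif. The first 4 are the strongest summit of the gene with 50 bp to each side: chr3R:15275306-15275406 at Cp190, chr3L:14759441-14759541 at Trl, chr3R:14308925-14309025 at su(Hw) and chr3R:8731956-8732056 at M1BP. Both of the last pair hold none of these motifs and are shown as the contrast.
Cp190: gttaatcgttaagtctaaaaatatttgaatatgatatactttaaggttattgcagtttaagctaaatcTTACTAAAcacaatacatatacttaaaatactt
Trl: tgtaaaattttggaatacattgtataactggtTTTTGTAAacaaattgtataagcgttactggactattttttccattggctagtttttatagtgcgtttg
su(Hw): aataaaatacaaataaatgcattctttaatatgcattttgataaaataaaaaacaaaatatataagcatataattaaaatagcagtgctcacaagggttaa
M1BP: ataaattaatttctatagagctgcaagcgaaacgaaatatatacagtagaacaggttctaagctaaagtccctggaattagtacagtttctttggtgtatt
The next 2 lie upstream of a start site, at chr2L:9967230-9967312 for Dref (the bases between the start sites of Dref and RpL13) and at chr3L:7356714-7356813 for CTCF (the 100 bp before its start).
Dref: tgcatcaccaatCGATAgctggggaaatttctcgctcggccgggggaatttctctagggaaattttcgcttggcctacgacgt
CTCF: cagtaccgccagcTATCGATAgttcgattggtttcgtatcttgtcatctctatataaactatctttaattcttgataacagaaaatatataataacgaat
The last is the summit of the Chro peak with 14 bp to each side, at chr3L:22878884-22878912.
Chro: ttgcctgtCGATAgctttaaactaactgc

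The deposited files were lists of peaks, and each peak carried a signal value set by the authors' peak caller, with no unit given. Peaks were ranked by signal within each list, where rank 1 is the strongest. The series-level thresholded list, made from both replicates, held 8714 peaks on the arms, against 7124 in the list of replicate 1 alone and 5382 in that of replicate 2 alone. Signals are not stated to be scaled between lists, so replicates were compared by rank. A peak was assigned to a gene when its summit lay in the gene body or up to 2000 bp upstream.

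HmgZ, Adf1, Chro and Trl carried some of the strongest peaks of the whole series-level list, and CTCF carried none above its threshold. In that list 9 of the 10 genes had a summit, against 44% of all coding genes (6129 of 13945). All 10 genes had one in the list of replicate 1 (41.1% of coding genes) and 8 had one in that of replicate 2 (33.1% of coding genes), where CTCF and su(Hw) had none. The same 9 genes had a summit within 500 bp of a transcription start site of their own, against 32% of coding genes. Because the genes were chosen with these peaks known, nothing is read from those counts.

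The 9 genes held 24 series-level summits. A single summit lay at each of Dref, M1BP, Cp190, su(Hw) and Chro. BEAF-32 and Adf1 had 3 each, Trl had 6 and HmgZ had 7. The median over the 9 genes was 1 summit, the same as over all coding genes with a summit. Counts of 6 or more occurred at 194 coding genes (1.39%). These counts grow with the length searched, which was 15.1 kb for Trl and 12.4 kb for HmgZ. Per 10 kb of window, BEAF-32 had 7.21 summits, HmgZ 5.66, Trl 3.97 and Adf1 3.84, while the other 5 genes had between 1.37 and 2.56. The median over coding genes with a summit was 2.36.

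**Figure D1:**
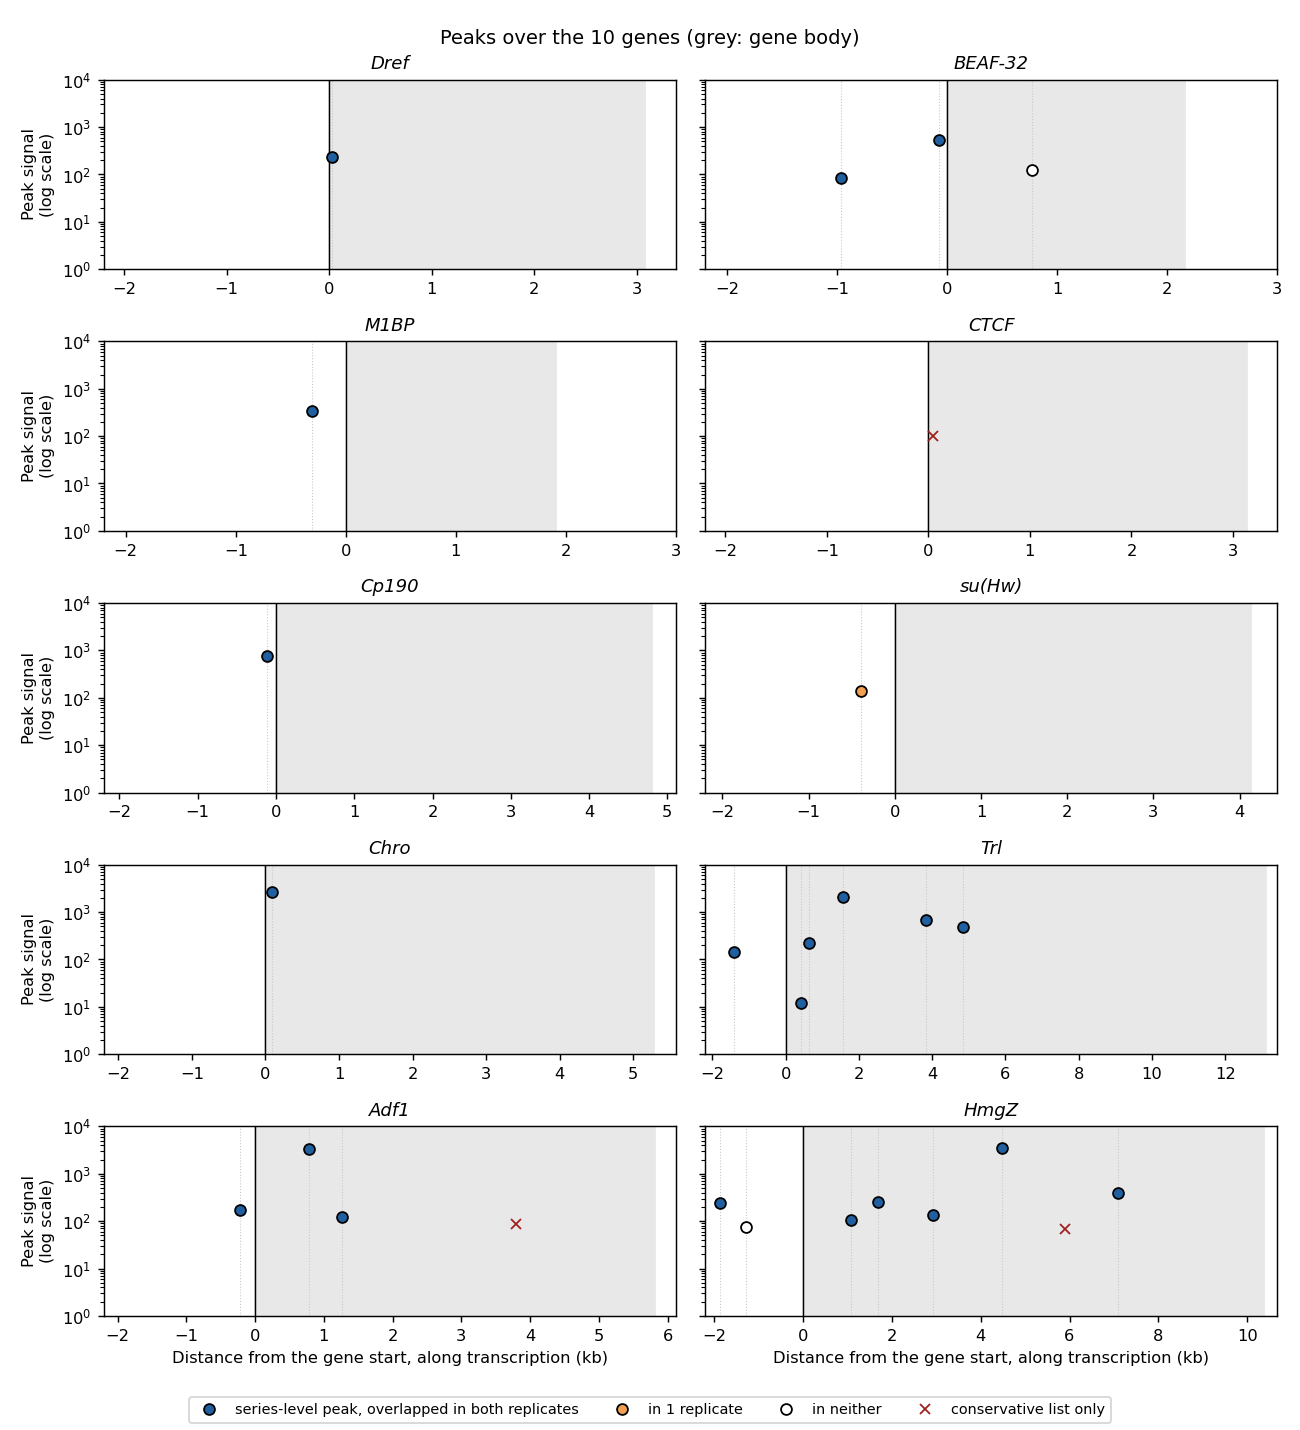
Signal of each peak (vertical axis, log scale, no unit) by distance of its summit from the outermost annotated gene start, along the direction of transcription (horizontal axis, kb). Filled blue points are series-level peaks overlapped in both replicates, orange in 1 replicate, white in neither, and crosses are peaks of the conservative list alone. Single peaks sit within 500 bp of the start of Dref, M1BP, Cp190, su(Hw) and Chro. Those of M1BP and su(Hw) are closer to the start of a neighbour. The strongest peaks of Trl, Adf1 and HmgZ lie inside the gene.

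Of the 24 summits, 15 lay within 500 bp of a start site of any gene, 8 in introns and 1 in an exon of a non-coding RNA. The shares of these locations over all series-level summits are not given here, so the split is a description alone. An overlapping peak (from 1 bp) was present in both replicates for 21 of the 24 summits, against 53.7% of all 8714 series-level peaks. The genes were chosen with the peaks of both replicates known, so nothing is read from that difference. One peak of each replicate was counted for both of a pair of overlapping Trl peaks. The su(Hw) peak was found in replicate 1 alone, and 2 peaks, at BEAF-32 and HmgZ, were overlapped in neither replicate list. The thresholded list that the authors named conservative held 23 of the 24. That list is nearly as long as the series-level list, with 8216 peaks on the arms against 8714, so nothing is read from this count.

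Among the factors that bind promoters, Dref (FBgn0015664, 2L, 9964147 to 9967229, minus strand) had 1 peak at 9967037 to 9967366. Its signal was 236.1 in the series-level list (rank 2051), 139.6 in replicate 1 (rank 2017) and 97.1 in replicate 2 (rank 2137). The 3 ranks were close to each other. The summit lay 27 bp inside Dref and 111 bp upstream of the start of RpL13, a ribosomal protein gene transcribed the other way.

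M1BP (FBgn0037621, 3R, 8729790 to 8731698, minus strand) had 1 peak at 8731944 to 8732130. Its signal was 332.3 in the series-level list (rank 1276), 186.6 in replicate 1 (rank 1345) and 121.9 in replicate 2 (rank 1604). The peak stood in the upper part of each list and was lower in replicate 2 than in replicate 1 by rank. Its summit lay 308 bp upstream of M1BP but only 85 bp upstream of CG8202, the gene on the other side, so the peak is closer to the neighbour's start.

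Trl (FBgn0013263, 3L, 14747929 to 14761049, minus strand), the GAGA factor gene, had its strongest peak in an intron, at 14759311 to 14759729. That peak had a signal of 2073 in the series-level list (rank 33), 1064 in replicate 1 (rank 43) and 1006 in replicate 2 (rank 26). It was among the top 50 in all 3 lists, and its summit lay 1529 bp upstream of the closest of the 4 annotated Trl start sites, a start that the overlapping gene CG42507 shares. The second Trl peak, 121 bp downstream of a Trl start, had signals of 688.4 (series-level, rank 366), 399.7 (replicate 1, rank 352) and 285.4 (replicate 2, rank 395). The next, in an intron 1122 bp from a start, had signals of 484.8 (rank 670), 284.3 (rank 657) and 191.2 (rank 772) in the same order of lists. The order of these 3 peaks was the same in every list. The other Trl peaks had series-level signals of 227.3, 144.2 and 12.0. The weakest overlapped the 227.3 peak, shared its replicate peaks and ranked 8659, near the end of the list. The peak of signal 144.2 lay 420 bp inside Mgat4a, whose start is 979 bp from that of Trl on the opposite strand.

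Adf1 (FBgn0284249, 2R, 6662265 to 6668085, plus strand) carried the 8th strongest peak of the list, in an intron at 6662864 to 6663264. Its signal was 3398 in the series-level list (rank 8), 1866 in replicate 1 (rank 8) and 1579.9 in replicate 2 (rank 9). The position among the top 10 was held in all 3 lists, with the summit 778 bp downstream of an Adf1 start. The promoter peak of Adf1 was far weaker, with signals of 168.9 (series-level, rank 3027), 111.0 (replicate 1, rank 2672) and 58.6 (replicate 2, rank 3881). Its summit lay 222 bp upstream of Adf1 and inside Dpit47, 58 bp from a start of that gene, which encodes a co-chaperone of heat shock proteins. The other series-level peak, in an exon of lncRNA:CR45128, had signals of 123.1 (series-level, rank 4301), 83.2 (replicate 1, rank 3693) and 143.8 (replicate 2, rank 1236). It stood higher in replicate 2 than in the other lists, opposite to the promoter peak. The conservative list held a 4th peak of signal 86.0, 3791 bp downstream of a start, and replicate 1 alone held one of signal 48.7, 2008 bp downstream.

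Among the insulator proteins that bind DNA, BEAF-32 (FBgn0015602, 2R, 14770469 to 14772630, plus strand) had its strongest peak at its promoter, at 14770287 to 14770523. The signal was 545.5 in the series-level list (rank 539), 322.7 in replicate 1 (rank 519) and 217.9 in replicate 2 (rank 628). The summit lay 72 bp upstream of BEAF-32, inside the antisense gene asRNA:CR42254, and both replicates placed it within 2 bp of the series-level summit. The second BEAF-32 peak, of signal 122.5, was 88 bp wide, was overlapped in neither replicate list and was absent from the conservative list. In the ranked lists, which also hold peaks under the threshold, it had a score of 52 in replicate 1 and 45 in replicate 2, where the thresholded lists begin at 830. The third, of signal 83.6, was overlapped in both replicates and lay 966 bp upstream of BEAF-32 but 80 bp from the start of Spred, a gene of the Sprouty-related family. Replicate 2 alone held a further peak of signal 42.5.

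CTCF (FBgn0035769, 3L, 7353578 to 7356713, minus strand) was the gene without a series-level peak. The conservative list had 1 at its promoter, at 7356500 to 7356829, 48 bp downstream of the start, with a signal of 99.9 (rank 5316). Replicate 1 had a peak there of signal 56.4 (rank 5500). In replicate 2 the position was present in the ranked list alone, with a signal of 45.1 and a score of 22. The score of the same peak was 1000 in the conservative list and 155 in the series-level ranked list, so whether CTCF counts as having a peak depends on the list. The nearest series-level summit outside the CTCF window, 1759 bp beyond its upstream edge, was closest to the start of Sec63 and had a signal of 252.5.

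The su(Hw) gene (FBgn0003567, 3R, 14304455 to 14308589, minus strand) had 1 peak, at 14308810 to 14309139, the weakest of the strongest peaks of the 9 genes. Its signal was 138.1 in the series-level list (rank 3773) and 78.0 in replicate 1 (rank 3955). The replicate 2 thresholded list lacked it, and the ranked list of replicate 2 gave a signal of 55.6 and a score of 54. Its summit lay 386 bp upstream of su(Hw) and 114 bp upstream of Polr2I, which encodes a subunit of RNA polymerase II. A further summit, of signal 117.6, was 635 bp beyond the 2 kb window of su(Hw), the closest of any outside the 10 windows.

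Among the cofactors, Cp190 (FBgn0000283, 3R, 15270432 to 15275241, minus strand) had 1 peak, at 15275182 to 15275554. The signal was 759.6 in the series-level list (rank 302), 401.4 in replicate 1 (rank 349) and 361.9 in replicate 2 (rank 266). It was in the top 400 peaks of every list. The summit lay between Cp190 and CG4338, 115 bp from the start of Cp190 and 166 bp from that of CG4338.

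Chro (FBgn0044324, 3L, 22873702 to 22878984, minus strand) had 1 peak, at 22878713 to 22879065, and it was the strongest promoter peak of the 9 genes. Its signal was 2643 in the series-level list (rank 19), 1453 in replicate 1 (rank 19) and 1204 in replicate 2 (rank 18). The rank thus differed by at most 1 between lists. The summit lay 86 bp inside Chro and 191 bp upstream of Ssl1, which encodes a subunit of the general transcription factor TFIIH, with the starts of the genes 105 bp apart.

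HmgZ (FBgn0010228, 2R, 21697488 to 21707861, minus strand) had the strongest peak of all 10 genes, at 21703096 to 21703712, 617 bp wide. The signal was 3534 in the series-level list (rank 7), 1846 in replicate 1 (rank 9) and 1687 in replicate 2 (rank 6). Its summit lay in an HmgZ intron, 551 bp upstream of the closest HmgZ start. HmgD (FBgn0004362, 21701458 to 21716727, plus strand), the related HMG-box gene on the opposite strand, overlaps HmgZ and also contains this summit, 1923 bp downstream of an HmgD start. The peak therefore cannot be assigned to one of the pair by position. The 6 other HmgZ peaks had series-level signals between 75.4 and 387.8. The 387.8 peak was closer to HmgD, 678 bp upstream of its start, and had signals of 260.7 in replicate 1 (rank 765) and 125.1 in replicate 2 (rank 1550). Summits of signals 246.4 and 75.4 were nearest to lncRNA:CR44749. The peak of signal 136.5, 421 bp upstream of an HmgZ start, was the only one of the 7 within 500 bp of a start of HmgZ itself. The conservative list held a further peak of signal 69.5, with its summit in a 5′ UTR 503 bp downstream of an HmgD start, and replicate 2 alone had a peak of signal 41.9 that overlapped it.

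**Figure D2:**
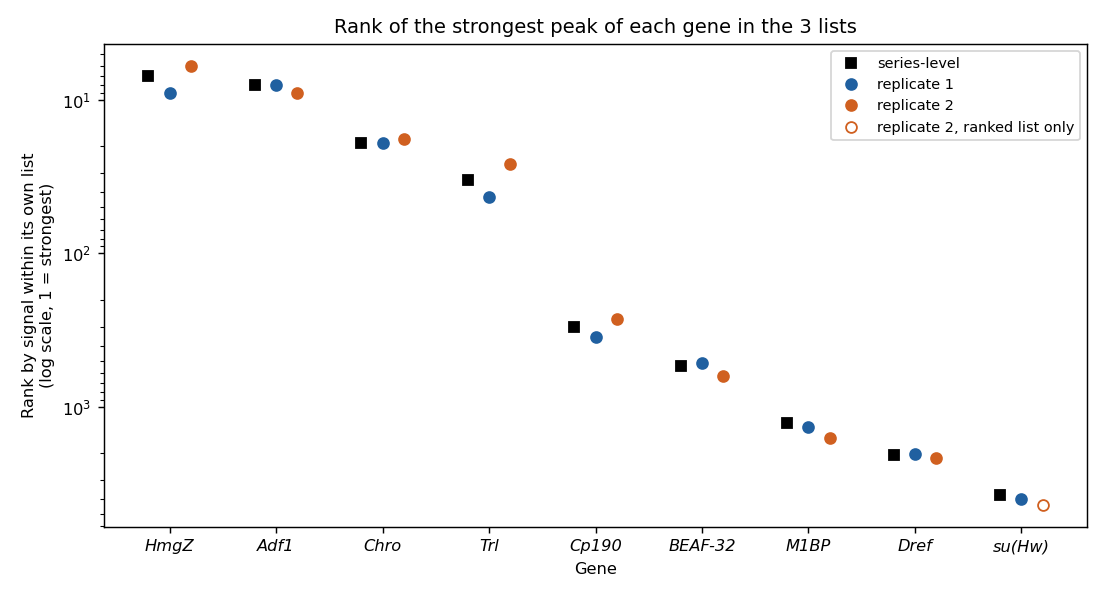
Rank by signal of the strongest series-level peak of each gene (vertical axis, log scale, 1 is the strongest) in the series-level list (black squares), replicate 1 (blue) and replicate 2 (orange), with an open circle where the replicate 2 peak was in the ranked list alone. HmgZ, Adf1, Chro and Trl stay between ranks 6 and 43 in all 3 lists, apart from the other 5 genes, whose ranks begin at 266.

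Across the 9 genes the strongest peak had a median rank of 302 and a median signal of 759.6, against 2618 and 192.1 over all 6129 coding genes with a summit. The strongest peak was in the top 50 of the list for 4 of the 9 genes and for 82 coding genes (1.34%). It was in the top 2000 for 7 of the 9, but the share of coding genes at that cut is not given here, so nothing is read from it. Dref, at rank 2051, was just outside the top 2000, and su(Hw) was lower still. The medians within each replicate list were 434 over the 10 genes with a summit in replicate 1 and 146 over the 8 in replicate 2, so they run over different genes. In the 8 genes whose strongest peak was found in both replicates, the summits lay within 11 bp of the series-level summit in replicate 1 and within 29 bp in replicate 2. Each of the 10 windows also held peaks of the series-level ranked list under the threshold, between 3 at M1BP and 10 at each of CTCF and HmgZ. Such peaks are common, since that list held 126102 peaks on the arms, of which 8938 scored 830 or more. The share of coding genes with such a peak is not given here, so nothing is read from these counts.

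**Figure D3:**
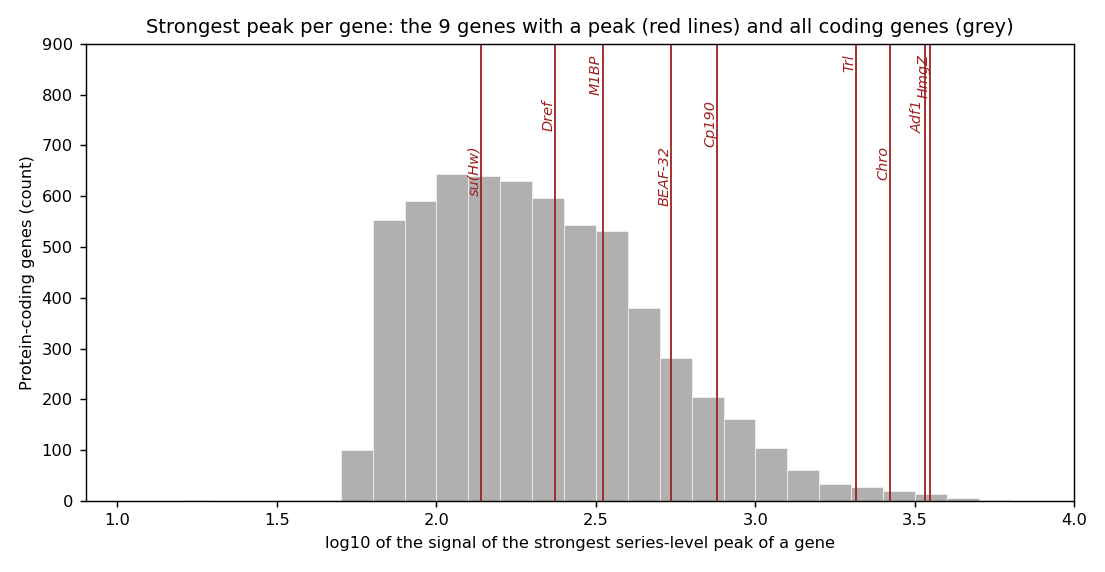
Number of protein-coding genes (vertical axis) by the log10 of the signal of their strongest series-level peak (horizontal axis), with a red line at each of the 9 genes. The lines run between su(Hw), near the highest bars, and Trl, Chro, Adf1 and HmgZ in the right tail, and the median of the 9 genes is 759.6 against 192.1 over all genes with a summit.

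A neighbour transcribed in the opposite direction was common at the 10 genes, as it was at all coding genes with a promoter summit. A coding neighbour in head-to-head orientation with its start within 1000 bp was present for 7 of the 10 genes, against 36.2% of coding genes and 60.3% of the 4456 coding genes with a summit within 500 bp of a start. The distances between the starts were 84 bp for Dref and RpL13, 105 bp for Chro and Ssl1, 147 bp for Adf1 and Dpit47, 281 bp for Cp190 and CG4338, 393 bp for M1BP and CG8202, 500 bp for su(Hw) and Polr2I, and 979 bp for Trl and Mgat4a. BEAF-32, CTCF and HmgZ had no such neighbour within 1000 bp. At BEAF-32 the start of Spred, on the opposite strand, lay just beyond that distance, so the cut decides that case. The nearest start belonged to another gene for 10 of the 24 summits. Among the strongest summits this held for 2 of 9, at M1BP and su(Hw). The share over all summits assigned to coding genes in the same way is not given here, so these 2 counts are not read as a trait of the genes. At M1BP, su(Hw) and Cp190 the summit lay between the starts of the pair. Position alone does not say which gene such a peak belongs to, and expression was not measured in this series.

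**Figure D4:**
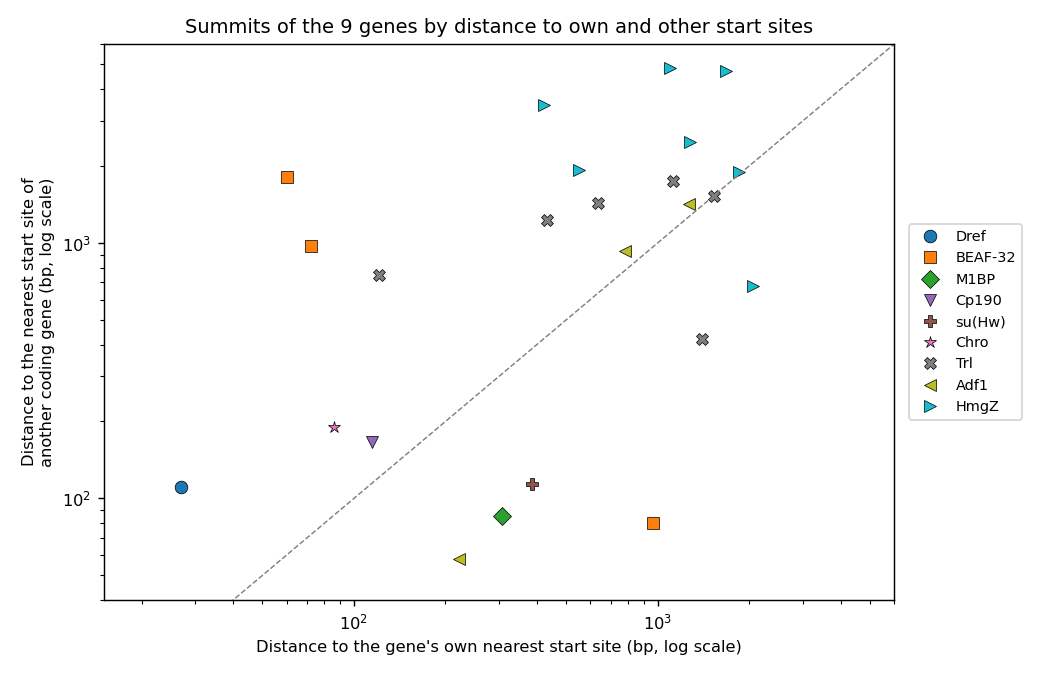
Distance in bp of each of the 24 summits to the nearest start site of its own gene (horizontal axis, log scale) and of another coding gene (vertical axis, log scale), with a marker per gene and a dashed line at equal distance. The 6 points under the line are closer to another coding gene, among them M1BP (308 bp against 85 bp) and su(Hw) (386 bp against 114 bp), and the strongest Trl summit lies on it at 1529 bp, at a start that is shared.

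The motifs of the factors that these genes encode were looked for in the 101 bp around each summit and in the promoters of the genes, on both strands. A match describes the letters and is not a binding site of the factor. TATCGATA, to which DREF binds, was within 50 bp of none of the 9 strongest summits, against 2.4% of all 8714 series-level summits. It was within 50 bp of 1 of the 24 summits, the promoter peak of Adf1, with its nearest base 1 bp away. CGATA, also counted inside TATCGATA, was near 6 of the 24 summits and near 2 of the 9 strongest, against 17.2% of all summits. Those were Chro, where its nearest base was 2 bp from the summit, as printed above, and Dref, where it lay 40 bp away, at the near end of the printed stretch.

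In the promoters (250 bases before to 50 after a start), TATCGATA was found at BEAF-32, CTCF, Cp190 and Adf1, 4 of the 10 genes, against 10.2% of coding genes and 16.7% of those with a promoter summit. At CTCF it lay 62 bp from the conservative summit and 36 bp from the summit of replicate 1. The promoter of Dref itself held CGATA but not TATCGATA. CGATA was present in 7 of the 10 promoters, against 53.1% of all promoters and 65.4% of those with a summit, BEAF-32 included.

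The letters searched for the other factors were rarer. GGTCACAC, the core of Motif 1 bound by M1BP, was within 50 bp of none of the 24 summits (1.23% of all summits) and in 1 of the 10 promoters, that of su(Hw), against 8.71% of coding genes. GAGAGAG, to which the product of Trl binds, was near none of the 24 summits (1.33% of all) and in the promoters of Trl and HmgZ, against 9.09% of coding genes. AGGTGGCGC, a CTCF core, was near 1 of the 24 summits, the promoter peak of Adf1, against 0.631% of all summits, and in none of the 10 promoters, against 0.394% of coding genes. TGCATACTT, a su(Hw) core, was near none of the 24 summits (0.264% of all) and in none of the 10 promoters (0.588% of coding genes). It did lie 3 bp from the summit of the HmgZ peak that the conservative list adds, where TTGCNNAA lay 13 bp away. Of the genes in question, Trl and BEAF-32 held in their own promoter the letters searched for their own product. Dref (for TATCGATA), M1BP, CTCF and su(Hw) did not hold theirs. CGATA, counted for BEAF-32, was in 53.1% of coding promoters and TATCGATA in 10.2%, and the CTCF and su(Hw) letters were rare everywhere. Nothing is therefore read from presence or absence at a single gene.

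Of the 2 loose motifs for the C/EBP site, TTACNNAA was near 4 of the 24 summits, against 9.39% of all summits. TTGCNNAA was near 1, against 8.82%. Among the strongest summits TTACNNAA was present at Cp190, 18 bp away, and at Trl, 11 bp away, both printed above. In the promoters TTACNNAA was found at Cp190, Chro and Trl (27.2% of coding genes) and TTGCNNAA at Cp190 (28.1%). The strongest summits of HmgZ, Adf1 and Chro had neither motif within 50 bp. The share of A and T in the 101 bp had a median of 62.4% over the 24 summits, between 44.6% and 80.2%, against 63.4% over all summits. The highest share was that of su(Hw).

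Partners of these factors were read from a list of 58 genes, of which 56 matched the annotation. A series-level summit was present at 33 of the 56 (58.9%), at 35 in replicate 1 and at 27 in replicate 2, set against the 44%, 41.1% and 33.1% of coding genes given above. By role, 13 of 16 promoter and pausing factors had one, 8 of 12 cohesin and condensin genes, 4 of 7 HMG and chromatin fibre genes, 6 of 15 insulator partners and 2 of 6 genes of the NSL complex. HmgD is among the HMG genes and shares 7 of its 8 summits with HmgZ, all 7 that HmgZ has. Without HmgD, 3 of 6 HMG and chromatin fibre genes and 32 of 55 genes in all had a summit. The groups are small and were not compared with a test.

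The highest promoter peak of the list, by signal in the series-level list, lay 185 bp upstream of a start of pds5, a cohesin regulator gene, with a signal of 1447 (rank 79). TH1, which encodes a subunit of NELF, the complex that holds RNA polymerase II paused near the start, came next with 764.5, before Rcd5 of the NSL complex with 567.6 and the histone kinase gene JIL-1 with 522.2. Of the other NELF genes, Nelf-E had 520.2, Nelf-A 435.1 and NELF-B 138.4 (rank 3767), so the levels differed within the complex. The condensin genes SMC2 and Cap-H2 had 484.5 and 417.2, and the insulator-related genes shep and pzg had 441.2 and 375.9. All of these peaks, that of NELF-B included, were overlapped in both replicates, and each was below the signal of Chro. The 10 highest are those other than NELF-B. The nearest start belonged to another gene for 6 of those 10 peaks: Mppe at pds5, CG11593 at Rcd5, RpL14 at Nelf-E, CG3337 at Nelf-A, MED7 at Cap-H2 and CG12974 at pzg. The mod(mdg4) gene, which encodes a gypsy insulator component, had its strongest peak more than 500 bp from its own starts, with a signal of 857.5 (rank 248), and that summit lay 75 bp from the start of pre-mod(mdg4)-C, a separately annotated gene. The peak at the start of mod(mdg4) itself had a signal of 65.6. Series-level summits were absent at 9 of the insulator partners, Ibf1, Ibf2, ZIPIC, dwg, insv, Elba1, Elba2, Elba3 and Clamp, and Clamp had 1 in replicate 1.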

How the data were processed

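The deposited files were 8 lists of ChIP-seq peaks on dm6, of which 7 were used. Which aligner and peak caller were run was not given in the sources used here. In the deposited lists the signal is the peak caller's value, with no unit and no stated scaling. The authors derived the score from the irreproducible discovery rate (IDR), and it is at least 830 in the thresholded lists. The other deposited columns used are peak and summit coordinates. No read counts were given, so depth per sample is unknown.

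The 2 biological replicates form 1 group, so no groups were compared and no test was made. Gene models were those of Ensembl release 115 without transposable elements, on 6 arms. Summits were assigned to gene bodies with 2000 bp upstream, and overlap counted from 1 bp. Counts, ranks and motif matches were computed with Python 3.11.15, numpy 2.4.6 and pandas 2.3.3, and figures drawn with matplotlib 3.10.9. The gene assignment and motif search were tested on simulated data.

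The 10 genes, the related genes and the motifs were chosen with earlier results of these data known. Named genes were the 10, genes whose start lies within 500 bp of their summits or whose body holds one, and the 10 related genes with the highest promoter signal. Related genes without a summit were to be given by count, and the 9 insulator partners among them, mod(mdg4), NELF-B, Sec63 and the neighbours of related genes were named after their values were seen. The alternatives tried were other lists, a stricter score, each replicate alone, and other windows, distances and overlaps.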

Additional observations from a re-analysis of the deposited data

How the results depend on the processing

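Of 51 alternative values for 7 results, 45 stayed within 1.5 times a reported count or, for the median rank and the share of coding genes, within the SD of the 2 replicate lists (204 ranks and 5.66 percentage points). That SD is wide and comes from the replicate values themselves, so it is a loose limit for them. Inside these limits, promoter genes fell to 6 of 10 at 250 bp, against 9, genes with a summit to 6 in the gene body alone and 7 by nearest start, and summits to 18 by nearest start. Counting summits in the gene body alone gave 15 summits at the 10 genes, a median rank of 26 over the 6 genes that then had one, and a share of coding genes of 19.2%. Assigning each summit to the gene of the nearest start gave 36.0% of coding genes. With each replicate list alone, the median rank was 146 to 434, the genes with a summit 8 to 10, those with a promoter summit 8 to 10, the coding genes with a summit 33.1% to 41.1%, the summits 23 in both, and the genes with TATCGATA at the strongest summit 0 to 1. The 33.1% was without replicate 1, and the 1 was without replicate 2, at CTCF. No paired analysis was possible because there is only 1 group. The lists give no depth, so a missing peak says only that none passed the authors' threshold.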
